A study of Mus musculus with 78 samples.

Results

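The 9 genes described here encode structural proteins of the sarcomere, the contractile unit of striated muscle: titin (Ttn), nebulin (Neb), the M-band proteins myomesin 1, 2 and 3 (Myom1, Myom2, Myom3), the slow and fast forms of myosin-binding protein C (Mybpc1, Mybpc2), and alpha-actinins 2 and 3 (Actn2, Actn3). They were chosen by mouse symbol from the Z-disc, the M-band and the thick filament, among 36904 genes in the table. All 9 were among the 18218 genes that passed a filter on low counts. RNA of the mouse soleus, a postural calf muscle rich in slow fibres, was sequenced in 78 libraries of C57Bl/6 mice. A pair of libraries of 12-month females carried the same animal tag and was summed, which leaves 77 replicates.

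The groups were, in the order of age, 6-month females (n = 4) and males (n = 6), 12-month females (n = 6) and males (n = 6), 20-month females (n = 6) and males (n = 9), and 28-month mice of both sexes that the labels split into 2 batches. At 28 months there were 6 females and 5 males in batch 1, with a further 7 females and 10 males in batch 2. A further group of 12 males at 28 months in batch 2 had been fed CaAKG (the calcium salt of alpha-ketoglutarate, a metabolite of the citric acid cycle) at 2% of the feed. The other groups are labelled as controls; all the groups at 6, 12 and 20 months are batch 1. Titles with M28 were read as 28 months. The mice of 6 and 12 months came from one supplier in Singapore and those of 20 months from another in the USA, so in the comparison of 20 with 6 months age and supplier cannot be told apart. The 28-month mice belonged to a separate cohort that was randomised to feeds, and no source used here names their supplier. In the comparisons of 28 months with 6 or 20 months, age and cohort therefore cannot be told apart either. The p-values measure the spread between these animals, which the fit over all groups estimated from all 11 groups together. In whole muscle, fewer cells of a type and less RNA per cell cannot be told apart.

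In the sarcomere, thin actin filaments are anchored at the Z-disc by alpha-actinin and thick myosin filaments are crosslinked at the M-band by myomesins. Titin spans from the Z-disc to the M-band as an elastic filament, nebulin runs along the thin filament, and myosin-binding protein C sits on the thick filament. Several of these proteins come in forms tied to fibre type: ACTN3, MYBPC2 and MYOM2 are known from fast fibres, MYBPC1 from slow fibres, while ACTN2 is found in both.

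The genes lie, in mm10 with GENCODE M21, on 8 chromosomes. Ttn (ENSMUSG00000051747) is at chr2:76703980-76982547 on the minus strand and Neb (ENSMUSG00000026950) at chr2:52136647-52378474, also on the minus strand. Myom1 (ENSMUSG00000024049) is at chr17:71002633-71126856, Myom2 (ENSMUSG00000031461) at chr8:15057653-15133541 and Myom3 (ENSMUSG00000037139) at chr4:135759715-135815564, all on the plus strand. Mybpc1 (ENSMUSG00000020061) at chr10:88518279-88605152, Mybpc2 (ENSMUSG00000038670) at chr7:44501699-44524656, Actn2 (ENSMUSG00000052374) at chr13:12269426-12340760 and Actn3 (ENSMUSG00000006457) at chr19:4861216-4877909 are on the minus strand. Their longest annotated transcripts differ widely, from 2887 bases for Actn3 and 3013 bases for Actn2, through 3611 for Mybpc2, 3922 for Mybpc1, 5075 for Myom2, 5575 for Myom3 and 5648 for Myom1, to 22489 for Neb and 106824 for Ttn. The span of Myom1 overlaps that of Myl12a on the opposite strand, a gene whose total counts came to 56.2% of those of Myom1. The exonic bases they share were not measured, and the sources used here do not state whether counting used strand. How many reads could pass from one gene to the other is therefore not known.

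Promoter windows in RefSeq (GRCm38.p6, 250 bases before to 50 after the start) were matched for 6 of the 9 genes: Ttn, Myom1, Myom3, Mybpc1, Mybpc2 and Actn2. The 3 windows that held a match to the binding consensus of MEF2 or to the CArG box of SRF, factors known from muscle gene control, are shown. Capitals mark the MEF2 match in Ttn, bases 85 to 94 of the window, and in Myom3, bases 216 to 225. In Myom1 they mark CTATATTTA, bases 130 to 138, which also lies within the Myom3 match, and the CArG match, bases 152 to 161. The Myom1 start in RefSeq lies inside the GENCODE gene, so this window is that of an internal start.
Ttn chr2:76982498-76982797, minus strand: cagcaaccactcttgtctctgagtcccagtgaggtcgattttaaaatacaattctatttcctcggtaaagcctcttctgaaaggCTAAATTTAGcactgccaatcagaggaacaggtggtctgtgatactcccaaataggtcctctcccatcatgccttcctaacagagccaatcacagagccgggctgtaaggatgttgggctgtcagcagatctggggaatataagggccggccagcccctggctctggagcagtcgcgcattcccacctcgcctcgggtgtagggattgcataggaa
Myom3 chr4:135759465-135759764, plus strand: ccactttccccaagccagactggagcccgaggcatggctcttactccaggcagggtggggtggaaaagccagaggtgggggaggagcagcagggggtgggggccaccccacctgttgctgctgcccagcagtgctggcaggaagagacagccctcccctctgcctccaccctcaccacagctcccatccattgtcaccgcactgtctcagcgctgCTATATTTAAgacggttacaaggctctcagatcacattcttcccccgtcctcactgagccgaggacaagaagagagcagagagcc
Myom1 chr17:71019307-71019606, plus strand: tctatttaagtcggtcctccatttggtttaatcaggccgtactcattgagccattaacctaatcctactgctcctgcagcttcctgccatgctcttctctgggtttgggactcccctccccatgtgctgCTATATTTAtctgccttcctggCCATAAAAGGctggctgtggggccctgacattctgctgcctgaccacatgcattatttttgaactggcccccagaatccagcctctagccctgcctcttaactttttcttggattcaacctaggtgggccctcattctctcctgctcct
The MEF2 consensus, searched on both strands, was present in 2 of the 6 windows, against 3.19% of 32851 promoter windows, and the CArG box in 1 of the 6, against 1.63%. CTATATTTA, picked out after the sequences were seen, was present in 2 of the 6 and in 0.195% of all windows. An E-box, CANNTG, was present in 6 of the 6 and in 72.3% of all windows, and TATAAA in 0 of the 6 and in 13.6%. A match is a description of these letters and not a site.

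Depth was 19460372 to 112376893 counts per replicate (median 35220277), with 10.05 to 46.52% of them from the mitochondrial genome (median 18.19%). The 46.52% belongs to 12-month female 4 alone, which was kept in the fits, and the next highest share was 27.1% in 6-month male 6. Values are CPM, counts per 1e+06 of the library total scaled by trimmed-mean (TMM) factors, unless said otherwise. Markers of muscle fibres were read: all 8 slow-fibre and all 10 fast-fibre markers reached 1 CPM in 77 of 77 replicates. Reaching 1 CPM cannot tell soleus from a neighbouring muscle, so the soleus label of single replicates was not tested. In 28-month batch 1 female 9 the summed fast-fibre markers were 70940.27 CPM and the summed slow-fibre markers 34018.56 CPM. Of 6 cardiac markers Myl7, Nppa, Mybpc3 and Tnni3 stayed under 1 CPM in all 77. The other cardiac markers were at low levels, Myh6 at a median of 15.01 CPM (at least 1 CPM in 76 of 77) and Tnnt2 at 10.88 CPM (77 of 77). These marker levels are CPM without the TMM factors. By Xist and Ddx3y, 5 replicates went against their sex label: 12-month females 1 and 4, 12-month male 3, 6-month female 3 and 6-month male 3. A further 9 replicates carried skin or marrow transcripts, among them replicates 8, 10 and 12 of the 28-month batch 1 females. Calls among the 9 genes that ended or arose without either set of these replicates in the age and batch comparisons are given beside the results.

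The 9 genes took 0.236 to 3.21% of the counts of a replicate (median 1.92%). Over all 77 replicates Mybpc2 spanned 2.03 to 3787 CPM, a 1862-fold range, and Actn3 spanned 13.2 to 8128 CPM, a 614-fold range. Myom2 spanned a 17.7-fold range, 75.9 to 1346 CPM, and Ttn a 10.4-fold range, 1264 to 13175 CPM. The other 5 genes were steadier, with ranges of 4.09-fold for Mybpc1, 4.35-fold for Actn2, 6.02-fold for Myom1, 6.88-fold for Myom3 and 6.91-fold for Neb.

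On the scale of CPM per kilobase of the longest transcript, which allows levels of different genes to be compared, Actn2 was highest (median 1075 CPM per kb over all replicates), followed by Mybpc1 (925), Myom1 (289), Neb (148), Myom2 and Myom3 (112 for Myom3), Actn3 (77.4), Ttn (41.8) and Mybpc2 (25.2). Actn2 ranked first and Mybpc1 second by group mean in all 11 groups, but the ranges of both genes overlapped in each group. Mybpc1 stood apart from the next gene in 9 of the groups; the exceptions were the 6-month females and the 28-month batch 1 females, where Actn3 came next and its range reached that of Mybpc1. Below Myom1, most neighbours in the order overlapped, Myom2 with Myom3 in every group where they were adjacent. By group mean per kilobase, Mybpc1 exceeded Mybpc2 and Actn2 exceeded Actn3 in all 11 groups.

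**Figure D1:**
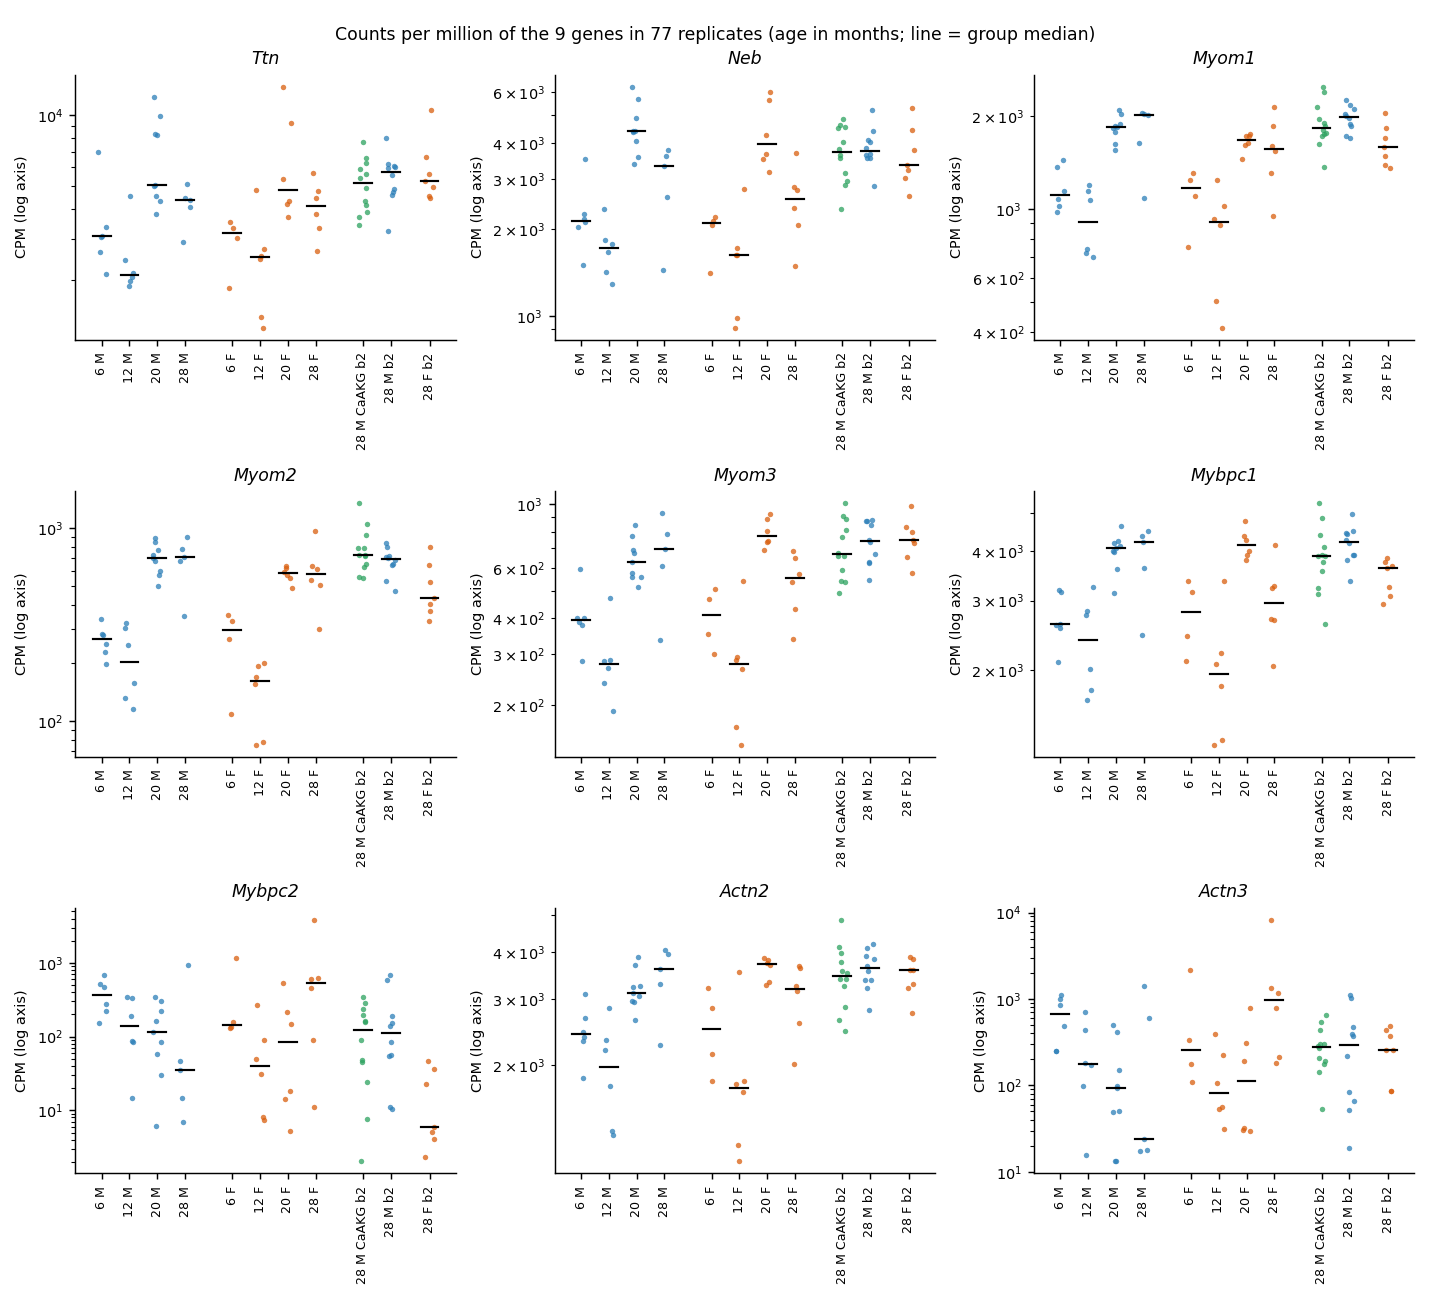
CPM of each of the 9 genes in every replicate (log axis), one panel a gene and one column a group, with points for replicates and lines for group medians (M, male; F, female; b2, batch 2). Mybpc2 spans 11.2 to 3787 CPM within the 28-month batch 1 females alone, while Mybpc1 and Actn2 stay within a narrow band.

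Myom2, which encodes the M-band crosslinker known from fast fibres, was the only one of the 9 genes called higher than at 6 months in both sexes and at both 20 and 28 months. In males it had 351, 901, 786, 710.1 and 675 CPM at 28 months in batch 1, against 198 to 341 CPM (median 266) at 6 months. The male groups did not overlap. The log2 fold change was 1.38 ± 0.26 (SE; adjusted p = 0.00018 by edgeR's quasi-likelihood test). In females Myom2 had 301 to 971 CPM (median 578) at 28 months in batch 1, against 354, 268, 109.6 and 330.1 CPM at 6 months. The female groups overlapped, and the log2 fold change was 1.17 ± 0.28 (adjusted p = 0.0027). When the fit held these 2 female groups alone, it was 1.17 ± 0.35 and did not pass (adjusted p = 0.10), and 0 of the 9 genes were called, in a fit that called 0 of 15595 genes (0%). The change from 6 to 28 months did not differ detectably between the sexes. Males minus females was 0.21 ± 0.37 on the log2 scale (interaction, adjusted p = 0.88).

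At 20 months Myom2 had 505 to 891 CPM (median 699.6) in males, against 198 to 341 CPM (median 266) at 6 months, and 491 to 641 CPM (median 586) in females, against 109.6 to 354 CPM at 6 months. Neither pair of groups overlapped. The log2 fold change was 1.41 ± 0.23 in males (adjusted p = 4.7e-07) and 1.13 ± 0.28 in females (adjusted p = 0.00079). In the fit over all groups it kept its call without any single library in all 4 of these comparisons, with log2 fold changes of 1.21 to 1.56 for 28-month males, 0.93 to 1.32 for 28-month females, at most 1.48 for 20-month males and 0.87 to 1.27 for 20-month females. Without the replicates against their sex label the change was 1.29 in 28-month males, 0.93 in 28-month females (adjusted p = 0.028), 1.31 in 20-month males and 0.86 in 20-month females (adjusted p = 0.014). Without the replicates with skin or marrow transcripts it was 1.45 in 28-month females (adjusted p = 0.0024).

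The other myomesins changed less. Myom3, the M-band protein known from fibres of intermediate speed, had 338, 607, 696, 785 and 928 CPM in 28-month batch 1 males, against 285 to 596 CPM (median 394) in 6-month males. The groups overlapped through replicate 11 of the 28-month males, and the log2 fold change was 0.72 ± 0.22 (adjusted p = 0.015). Without 28-month male 15 it was 0.57 (adjusted p = 0.082) and without 6-month male 4 it was 0.58 (adjusted p = 0.065). At 20 months Myom3 averaged 645 ± 109 CPM in males (SD, n = 9) and 408 ± 102 CPM at 6 months (n = 6), a log2 fold change of 0.66 (adjusted p = 0.0031). In females it averaged 798 ± 89.9 CPM at 20 months (n = 6) and 407 ± 96.4 CPM at 6 months (n = 4), with a log2 fold change of 0.97 (adjusted p = 0.00062).

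Myom1, the myomesin found in all striated fibres, averaged 1763 ± 416 CPM in 28-month batch 1 males (n = 5) and 1173 ± 191 CPM in 6-month males (n = 6). The log2 fold change was 0.59 ± 0.18 (adjusted p = 0.015), and it lost its call without 28-month male 13 (0.49, adjusted p = 0.065) or without 6-month male 1 or 4 (0.50 in both, adjusted p = 0.053 in both). In 28-month females its change of 0.51 had an adjusted p of 0.052, with 0.38 (adjusted p = 0.15) without replicate 9, 0.61 (adjusted p = 0.02) without replicate 8, 0.55 (0.048) without replicate 10 and 0.58 (0.044) without 6-month female 1. Without the replicates with skin or marrow transcripts it was 0.80 (adjusted p = 0.0075). At 20 months Myom1 was 0.64 higher on the log2 scale in males (adjusted p = 0.00042) with groups that did not overlap, 1554 to 2091 CPM against 979 to 1441 CPM at 6 months. In females it was 0.58 higher (adjusted p = 0.012), a call lost without 6-month female 3 (0.44, adjusted p = 0.12) and without the replicates against their sex label (0.43, adjusted p = 0.10).

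Titin and nebulin, the longest transcripts of the 9, moved together. At 20 months Ttn had 3719.8 to 13175 CPM (median 4839) in females, against 3341, 3547, 1859 and 3021 CPM at 6 months; the groups did not overlap. Neb had 3172 to 6021 CPM (median 3954) in the same 20-month females, against 2130.1, 2199, 1404 and 2068 CPM at 6 months, again with no overlap. The log2 fold changes in females were 1.18 ± 0.33 for Ttn (adjusted p = 0.0029) and 1.17 ± 0.25 for Neb (adjusted p = 7.5e-05). In males Ttn had 3831 to 11948 CPM (median 5068) at 20 months, against 2123 to 6993 CPM (median 3073) at 6 months, and Neb had 3372 to 6282 CPM (median 4394) at 20 months, against 1506 to 3520.5 CPM (median 2145) at 6 months. The male groups overlapped through the highest 6-month male, replicate 3, which goes against its sex label. The log2 fold changes in males were 0.94 ± 0.27 for Ttn (adjusted p = 0.0024) and 1.01 ± 0.20 for Neb (adjusted p = 1.7e-05). Without the replicates against their sex label they were 1.22 ± 0.26 for Ttn (adjusted p = 6.2e-05) and 1.14 ± 0.20 for Neb (adjusted p = 2.5e-06). At 28 months neither gene passed the test against 6 months in either sex, with log2 fold changes of 0.49 and 0.24 for Ttn in females and males and 0.37 and 0.38 for Neb. Against 20 months, Neb was lower at 28 months in females, by 0.79 on the log2 scale (-0.79 ± 0.21, adjusted p = 0.0036), and in males (-0.63 ± 0.21, adjusted p = 0.027). In males that call was lost without 28-month male 11 (-0.46, adjusted p = 0.16), without 28-month male 12 (-0.60, adjusted p = 0.068) or without 20-month male 5 (-0.56, adjusted p = 0.057). Ttn was -0.69 in females (adjusted p = 0.057) and -0.70 in males (adjusted p = 0.076); in females it passed without 28-month female 9 (-0.80, adjusted p = 0.037) or without 20-month female 2 (-0.83, 0.029), 3 (-0.80, 0.037) or 5 (-0.80, 0.035), and it was -0.38 (adjusted p = 0.35) without 20-month female 1. Without the replicates against their sex label Ttn passed in both sexes, at -0.66 in females (adjusted p = 0.04) and -0.69 in males (adjusted p = 0.044).

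The log2 ratio of Ttn to Neb was 0.05 to 1.13 over all replicates. Its difference between groups ranged from -0.20 to 0.23 on the log2 scale over the 11 comparisons, and none passed the threshold after adjustment over 44 permutation tests of 4 ratios.

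Mybpc1, which encodes the slow form of myosin-binding protein C, averaged 3838 ± 841 CPM in 28-month batch 1 males (n = 5) and 2705 ± 412 CPM in 6-month males (n = 6). The log2 fold change was 0.50 ± 0.17 (adjusted p = 0.032) and the call was lost without any one of 7 libraries: 28-month male 12, 13, 14 or 15, or 6-month male 1, 4 or 5, with log2 fold changes of 0.39 to 0.49 and adjusted p of 0.066 to 0.13. At 20 months it was higher by 0.57 in males (adjusted p = 0.0013) and by 0.60 in females (adjusted p = 0.0072), the female call being lost without 6-month female 3 (0.49, adjusted p = 0.072) and without the replicates against their sex label (0.48, adjusted p = 0.059). Between 28 and 20 months in females it was lower, -0.48 (adjusted p = 0.021). That call was lost without 28-month female 8 (-0.40, adjusted p = 0.061) or 12 (-0.43, 0.057), or without 20-month female 4 (-0.43, 0.057).

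Mybpc2, the fast form, showed a spread within groups that exceeded most differences between them. In 28-month batch 1 males it had 46.4, 6.95, 932, 34.8 and 14.5 CPM, against 153 to 690 CPM (median 373) in 6-month males. One replicate, male 13, stood far above the other 4, and the log2 fold change was -0.91 (adjusted p = 0.67); without it the value was -3.95 (adjusted p = 0.037). Myh4, the myosin heavy chain of the fastest fibres, was 4901 CPM in the same male and 9.65 to 52.6 CPM in the other 4. In 28-month batch 1 females Mybpc2 had 11.2 to 3787 CPM (median 528), against 130.3, 157, 134 and 1182 CPM in 6-month females. The highest 28-month female, replicate 9, also had the highest Myh4, 14043 CPM, and the highest 6-month female, replicate 4, had 6152 CPM of Myh4. Over the whole list of 10 fast-fibre markers, the summed level was 26416 to 44359 CPM in 28-month batch 1 males, against 33546 to 43313 CPM in 6-month males, and 21019 to 74650 CPM in 28-month batch 1 females, against 27556 to 43338 CPM in 6-month females; its part in these results was not tested.

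Actn2, the alpha-actinin of all fibres, averaged 3610.1 ± 253 CPM in 20-month females (n = 6) and 2500.1 ± 633 CPM in 6-month females (n = 4). The log2 fold change was 0.53 (adjusted p = 0.029), lost without 6-month female 3 (0.40, adjusted p = 0.18) or 4 (0.46, adjusted p = 0.10) and without the replicates against their sex label (0.39, adjusted p = 0.16). In males it averaged 3199 ± 381 CPM at 20 months (n = 9) and 2459 ± 411 CPM at 6 months (n = 6), 0.38 on the log2 scale (adjusted p = 0.048). This male call was lost without any one of 11 libraries, namely 20-month male 1, 2, 3, 4, 5 or 8 or 6-month male 1, 3, 4, 5 or 6, with log2 fold changes of 0.27 to 0.39 and adjusted p of 0.051 to 0.21, and without the replicates against their sex label (0.37, adjusted p = 0.058). At 28 months its change in males of 0.48 had an adjusted p of 0.061, and it passed without 28-month male 11 (0.61, adjusted p = 0.019) or without 6-month male 2 (0.55, adjusted p = 0.046), was 0.36 (adjusted p = 0.21) without 6-month male 4, and passed in the fit without the replicates with skin or marrow transcripts (0.49, adjusted p = 0.045).

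Actn3, the alpha-actinin of fast fibres, had 13.2 to 498 CPM (median 94.1) in 20-month males, against 248 to 1104 CPM (median 669.9) in 6-month males. The groups overlapped, and the log2 fold change was -2.10 ± 0.86 (adjusted p = 0.039). The call was lost without any one of 10 libraries, 20-month male 2 to 8 or 6-month male 1, 4 or 6, with log2 fold changes of -2.09 to -1.93 and adjusted p of 0.052 to 0.074, and without the replicates against their sex label it was -2.29. The summed fast-fibre markers were 25895 to 41707 CPM in the 20-month males and 33546 to 43313 CPM in the 6-month males; their part in this result was not tested. In 28-month batch 1 females Actn3 had 184 to 8128 CPM (median 970.1), against 29.3 to 791 CPM (median 112) in 20-month females, a log2 fold change of 3.09 ± 1.02 (adjusted p = 0.017). Without 28-month female 9, whose Myh4 was 14043 CPM, it was 1.70 (adjusted p = 0.19), and without 20-month female 4, the highest of its group, it was 4.08 (adjusted p = 0.006). The summed fast-fibre markers were 21019 to 74650 CPM in those 28-month females and 20741 to 31830.3 CPM in the 20-month females; their part in this result was not tested.

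Counted over the 9 genes, 1 was called higher at 28 than at 6 months in females, where 9.82% of all genes tested were called higher and 18.8% were called in either direction. In males 4 were called higher, where 6.76% of all genes were and 16.1% were called in either direction. Groups did not overlap for 0 of the 9 in females, against 5.26% of all genes, and for 1 of the 9 in males, against 9.8%. At 20 against 6 months 7 were called higher in females, against 18.2% of all genes called higher and 36% in either direction, and 7 of the 9 genes had groups that did not overlap, against 34.9%. In males 7 were called higher and 1 lower, against 22.5% of all genes higher, 22% lower and 44.5% in either direction, and 2 genes, Myom1 and Myom2, had groups that did not overlap, against 24.9%. The median log2 fold change of the 9 genes was 0.49 in females and 0.48 in males at 28 against 6 months and 0.60 and 0.64 at 20 against 6 months, while the median over all 18218 genes tested lay between 0 and 0.09. Without the replicates against their sex label the female count at 20 months was 4, against 31% of all genes, with Ttn at 1.00, Neb at 1.02, Myom2 at 0.86 and Myom3 at 0.84. The 20-month and 28-month comparisons share their 6-month replicates.

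Markers of other cell types moved in the same comparisons. At 20 against 6 months 7 of 7 endothelial markers were called higher in both sexes, with a summed level of 399.7 to 524 CPM in 20-month females, against 104 to 259 CPM in 6-month females, and of 421 to 559 CPM in 20-month males, against 90.7 to 163 CPM in 6-month males. Of 6 smooth muscle markers, 4 were called higher in females and 6 in males, with a summed level of 615 to 653 CPM in 20-month females, against 162 to 357 CPM at 6 months, and of 586 to 759 CPM in 20-month males, against 174 to 257 CPM at 6 months. Of 6 tendon markers, 2 were called higher and 1 lower in females (596 to 802 CPM at 20 months, against 214 to 581 CPM at 6 months) and 5 higher and 1 lower in males (300.3 to 596 CPM, against 112 to 314 CPM). Fibroblast markers were called higher for 1 of 6 in females and 2 of 6 in males, and adipocyte markers for 0 of 6 and 5 of 6. At 28 against 6 months in males 7 of 7 endothelial markers (213 to 313 CPM, against 90.7 to 163 CPM), 5 of 6 smooth muscle markers (359 to 517 CPM, against 174 to 257 CPM) and 3 of 6 adipocyte markers were called higher. In females at 28 months these were 3 of 7 endothelial (79.3 to 305 CPM, against 104 to 259 CPM), 0 of 6 smooth muscle and 0 of 6 adipocyte markers, with 2 of 6 fibroblast, 10 of 10 neutrophil and 4 of 10 keratinocyte markers called higher. Without the TMM factors, the summed neutrophil markers were 1443.23 and 472.91 CPM in 28-month females 10 and 12, and 2.17 to 20.44 CPM in the others of batch 1. The keratinocyte sum was 9937.71 CPM in female 8 and 7.89 to 17.56 CPM in the others. The fibroblast sum was 4478.43 CPM in female 10 and 165.7 to 1269.88 CPM in the others. None of the endothelial markers was at 0 in any replicate. The part of these cell types in the results for the 9 genes was not tested.

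At 12 against 6 months none of the 9 genes was called in females by edgeR, where 0.225% of all genes were, nor in males, where 9.77% were. In females 7 had an unadjusted p under 0.05, against 14.4% of all genes, and in males 1 had, against 23%. DESeq2 called 0 in both. The log2 fold changes were below 0 for all 9 genes in both sexes, from -2.40 to -0.22 in females and from -1.28 to -0.18 in males, except that with length and GC offsets, described further on, Ttn was 0.09 and Neb 0.04 in females. The female values farthest from 0 were -2.40 for Mybpc2 and -2.28 for Actn3, and without 6-month female 4 these were -0.87 (adjusted p = 0.84) and -0.53 (adjusted p = 0.90). Ttn averaged 2534 ± 1279 CPM at 12 months (n = 6) and 2942 ± 754 CPM at 6 months (n = 4) in females. Leaving out 12-month female 2, whose Actn2 of 3534 CPM was the highest of its group, gave 4 calls, in a fit that called 754 genes in all, against 41 with it: Myom2 -0.97 (adjusted p = 0.034), Myom3 -0.82 (0.022), Mybpc1 -0.67 (0.018) and Actn2 -0.71 (0.015). Leaving out 6-month female 3 gave Myom2 -1.13 (adjusted p = 0.023), and in males Myom3 was -0.68 (adjusted p = 0.018) without 12-month male 3 and -0.58 (adjusted p = 0.041) without both male replicates against their sex label.

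Between 28 and 20 months 4 of the 9 genes were called in females, against 29.8% of all genes: Neb, Myom3 and Mybpc1 were lower, as were 12.5% of all genes, and Actn3 was higher, as were 17.2%. Myom3 averaged 536 ± 131 CPM at 28 months (n = 6) and 798 ± 89.9 CPM at 20 months (n = 6), with a log2 fold change of -0.57 (adjusted p = 0.028). Its groups did not overlap, as held for 11.3% of all genes, but the call was lost without 28-month female 8 (-0.48, adjusted p = 0.078) or 10 (-0.52, 0.068) or without 20-month female 1 (-0.54, 0.056) or 6 (-0.54, 0.055). Mybpc2 was 2.56 higher (adjusted p = 0.078), with 3.54 (adjusted p = 0.03) without 20-month female 4 and 1.19 (adjusted p = 0.44) without 28-month female 9. Without the replicates with skin or marrow transcripts, which takes 3 of the 6 females at 28 months, Mybpc2 at 3.43 (adjusted p = 0.039) and Actn3 at 3.96 (adjusted p = 0.009) were called and the other 3 were not. In males 1 gene, Neb, was called, and it was lower, against 8.73% of all genes called lower and 16.9% in either direction.

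**Figure D2:**
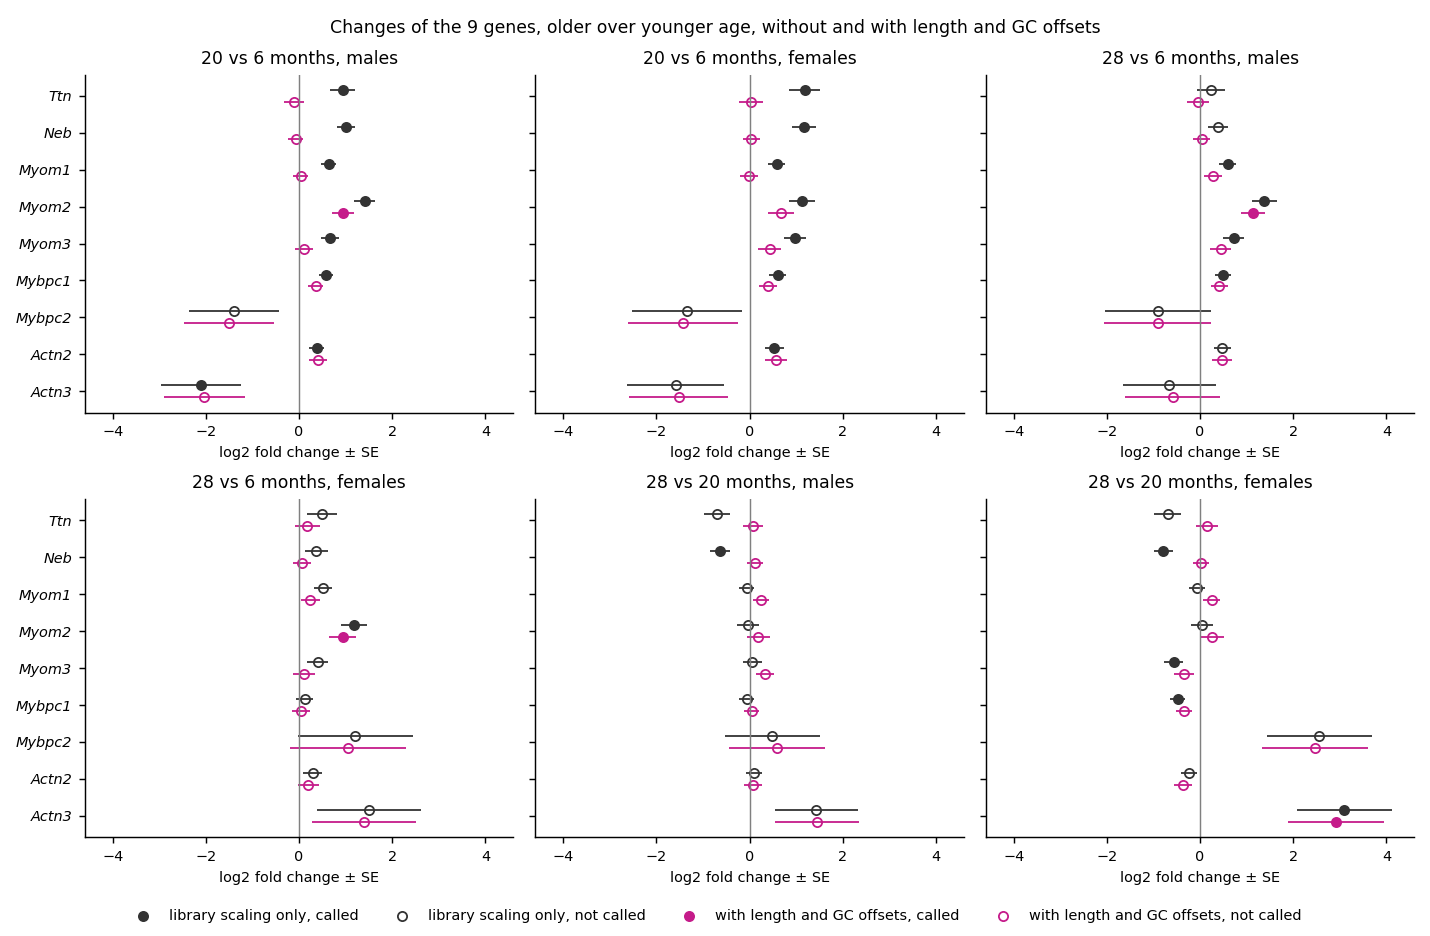
Log2 fold changes of the 9 genes with standard errors in 6 age comparisons, older over younger age, without (black) and with (magenta) per-library offsets on the longest transcript length and GC content; filled points passed the test. Ttn and Neb at 20 against 6 months lie near 0 with these offsets, between -0.11 and 0.04, and Myom2 at 28 against 6 months is filled in both versions.

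Transcript length had a strong relation with these changes across all genes. Spearman's rho between the log2 fold change and the length of the longest transcript, over 17757 genes in which genes are not independent replicates, was 0.545 in females and 0.50 in males at 20 against 6 months, 0.287 and 0.322 at 28 against 6 months, and -0.262 and -0.201 at 12 against 6 months. Between 28 and 20 months it was -0.402 in females and -0.497 in males. The 39 genes over 16 kb other than Ttn and Neb had a median log2 fold change of 1.28 in females and 1.06 in males at 20 against 6 months. Of these, 20 lay above Ttn and 20 above Neb in females, and 23 and 21 in males. So Ttn lay 0.10 below the median of its length class in females and 0.12 below it in males, and Neb 0.11 and 0.05 below. Myom2 lay above its own class, the 4999 genes of 4 to 8 kb, by 0.64 in females and 0.95 in males at 20 months and by 0.92 and 1.21 at 28 months. Mybpc1 lay above its class by 0.66 in females and 0.62 in males at 20 months. Actn2 did so by 0.59 and 0.43, Myom3 by 0.48 and 0.2, and Myom1 by 0.09 and 0.18. At 28 months Mybpc1, Actn2, Myom3 and Myom1 lay 0.06 to 0.26 above in females and 0.42 to 0.55 above in males. Mybpc2 and Actn3 lay -1.28 and -1.53 from their class in females and -1.35 and -2.05 in males at 20 months. At 28 months they lay 1.15 and 1.44 from it in females and -0.89 and -0.64 in males.

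**Figure D3:**
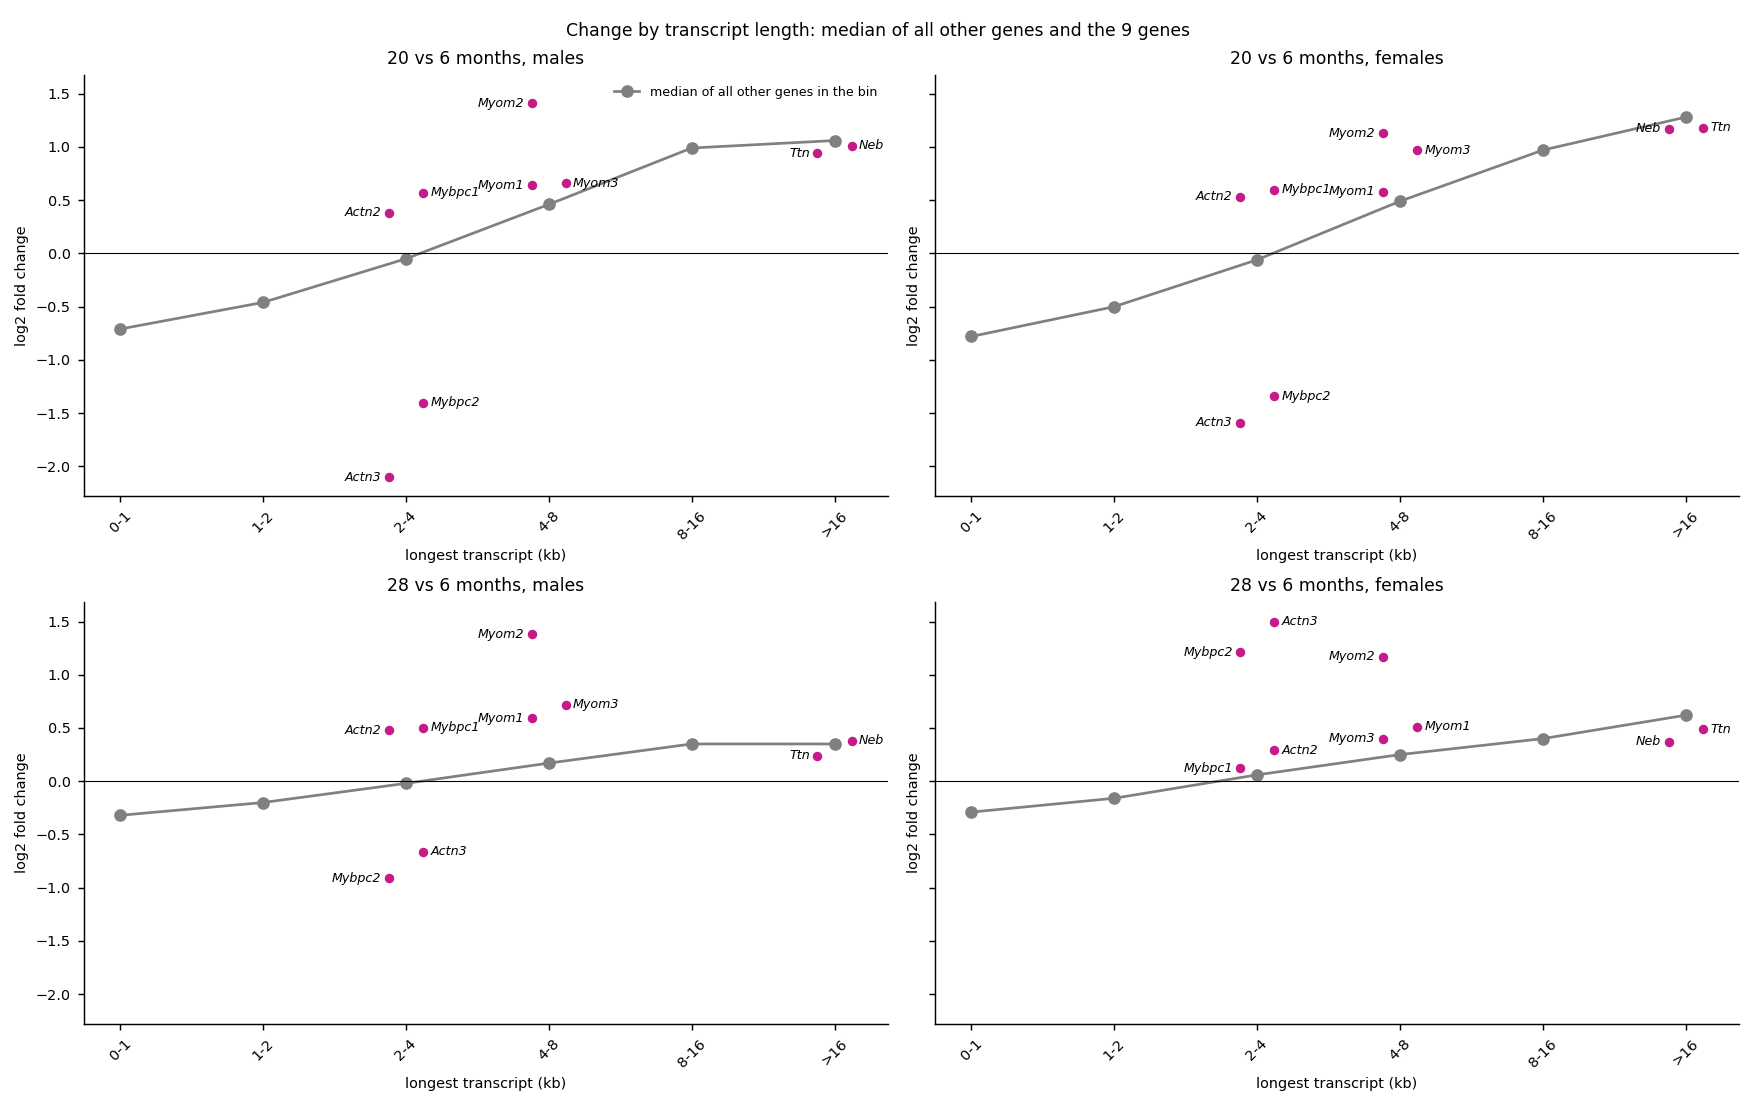
Log2 fold change of each of the 9 genes (magenta) by class of longest transcript length in kb, with the median of all other genes in the class (grey line), for 20 and 28 against 6 months in each sex. Ttn and Neb lie between 0.25 below and 0.03 above the median of the genes over 16 kb, and Myom2 lies 0.64 to 1.21 above its class. Myom1, Myom3, Mybpc1 and Actn2 also lie above their classes in every panel, by 0.06 to 0.66.

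The fits were repeated with offsets for each library, drawn from a smooth trend of its counts on transcript length and GC content over the other genes. The trend was held constant beyond 19731 bases, a limit that 18 genes exceed, Ttn and Neb among them. With the offsets, rho between change and length was within -0.047 to 0.036 in every comparison. Ttn was then 0.03 in females and -0.11 in males at 20 against 6 months, and Neb 0.04 and -0.07; none was called. Myom1 was -0.01 in females and 0.04 in males, and Myom3 0.43 and 0.11. In the same fit Myom2 was 1.13 in males (adjusted p = 0.0028) and 0.94 in females (adjusted p = 0.025) at 28 months, and 0.94 in males (adjusted p = 0.0011) and 0.68 in females (adjusted p = 0.086) at 20 months. It was the only one of the 9 called in 3 of these 4 comparisons, and 0 were called in 20-month females. With the offsets 10.7% and 10% of all genes were called at 28 against 6 months in females and males, and 18.8% and 31.1% at 20 against 6 months. Neb at 28 against 20 months was 0.02 in females and 0.11 in males. Actn3 at 28 against 20 months in females was also called, 2.91 (adjusted p = 0.043), against 16% of all genes, and the change of Actn3 in 20-month males against 6 months was -2.04 (adjusted p = 0.066).

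How far the changes of the giant genes shrink depended on which transcript length entered the offsets. The median over a gene's annotated transcripts was planned as the length, and it was replaced after the table was seen because short annotated fragments set it: it is 2093 bases for Ttn, 1825 for Neb and 744 for Myom2. With offsets from that median length, Ttn at 20 against 6 months was 0.90 in females (adjusted p = 0.032) and 0.66 in males (adjusted p = 0.042), and Neb was 0.98 (adjusted p = 0.0018) and 0.81 (adjusted p = 0.00089). In that fit 5 of the 9 genes were called in females, against 29.5% of all genes, and 6 in males, against 40%, at 20 months. Myom2 was called in all 4 comparisons with 6 months, at 1.17 in females (adjusted p = 0.0059) and 1.44 in males (adjusted p = 0.00028) at 28 months, and at 1.28 (adjusted p = 0.00055) and 1.57 (adjusted p = 3.3e-07) at 20 months. At 28 against 6 months it was the only one of the 9 called with either kind of offset, in either sex; with the median length 14.7% of all genes were called there in females and 13.1% in males.

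The slope of a library's deviation on log2 transcript length, computed on 12834 other genes, differed between groups. Its median was -0.245 in 6-month females and -0.242 in 6-month males, -0.373 and -0.381 at 12 months, and 0.232 in both sexes at 20 months. The lowest slope of a replicate was -0.594, in 12-month female 4, which also had the highest mitochondrial share. At 28 months it was -0.006 and -0.01 in batch 1 females and males, 0.17 and 0.129 in batch 2 females and males, and 0.134 in the CaAKG males. Within groups, replicates with a higher slope had higher Ttn (r = 0.497, rho = 0.35, permutation p = 4e-05, adjusted p = 0.00036 over 18 relations, n = 77 deviations from the group means; r = 0.425 without the 2 replicates farthest from the median slope). For Neb r was 0.52, rho was 0.404 and the adjusted permutation p was 0.00036 (r = 0.472 without those 2). Myom3 had r = 0.467 and rho = 0.318 (adjusted permutation p = 0.0015 and 0.019), Mybpc1 r = 0.49 and rho = 0.35 (0.0013 and 0.0099), and Myom1 r = 0.419 and rho = 0.313 (0.0082 and 0.02). For Actn2 r was 0.413 (adjusted permutation p = 0.0082) but rho, 0.248, did not pass (adjusted permutation p = 0.066). Myom2 had r = 0.308 (adjusted permutation p = 0.05) with rho = 0.167 (adjusted permutation p = 0.22). Mybpc2 (r = -0.16, adjusted permutation p = 0.21) and Actn3 (r = -0.062, adjusted permutation p = 0.59) showed no detectable relation. With median in place of longest transcript lengths, r was 0.38 for Ttn and 0.366 for Neb.

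**Figure D4:**
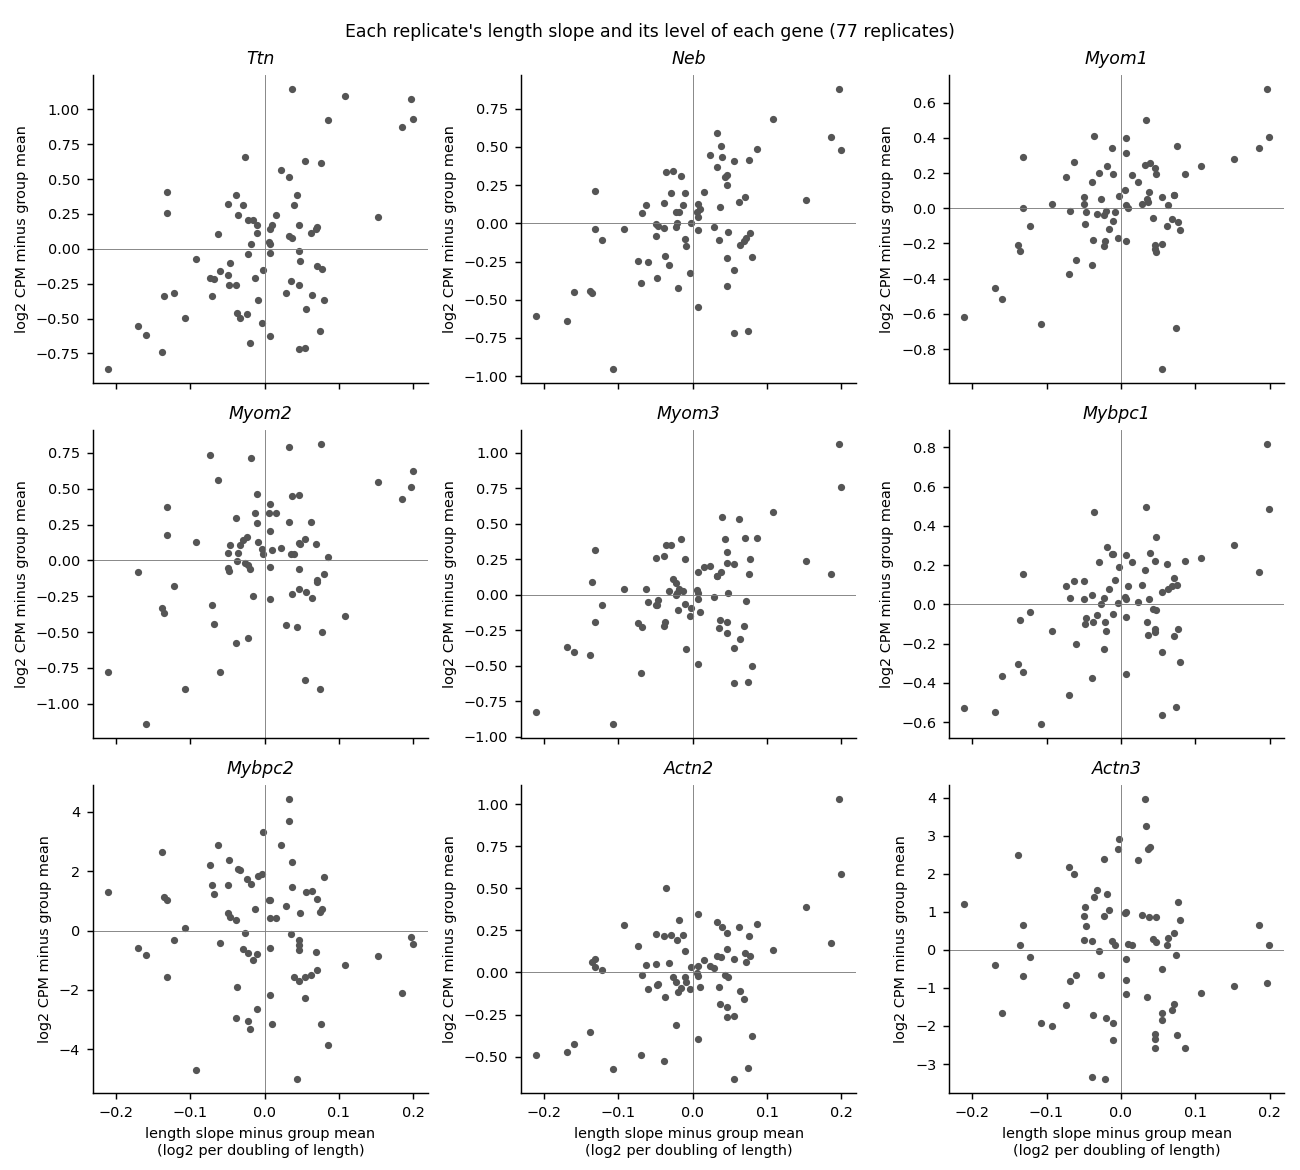
Deviation of each of the 9 genes from its group mean (log2 CPM) against the deviation of the library's length slope (log2 per doubling of length), one panel a gene and one point a replicate (n = 77). Points for Ttn and Neb run upward with the slope (r of 0.497 and 0.52), as do those for the shorter Mybpc1 (0.49), Myom3 (0.467), Myom1 (0.419) and Actn2 (0.413). Those for Mybpc2 and Actn3 show no such trend.

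Ratios of counts within a library compare related genes at the same depth. Myom2 over Myom3 averaged 0.11 ± 0.30 on the log2 scale in 20-month males (SD, n = 9) and -0.62 ± 0.51 in 6-month males (n = 6), a difference of 0.73 (exact permutation p = 0.0014, adjusted p = 0.031 over 44 tests). Without 6-month male 3, which goes against its sex label, the difference was 0.54 and no longer passed; it lost the threshold without any one of 9 of the 15 replicates. Males exceeded females at 20 months in the same ratio, 0.11 ± 0.30 (n = 9) against -0.46 ± 0.21 (n = 6), a difference of 0.57 (exact permutation p = 0.0014, adjusted p = 0.031), which lost the threshold without any one of 8 of the 15 replicates. Actn3 over Actn2 averaged -5.32 ± 1.91 in 20-month males (n = 9) and -2.13 ± 1.19 in 6-month males (n = 6), a difference of -3.19 (exact permutation p = 0.004, adjusted p = 0.059). Mybpc2 over Mybpc1 differed by -2.49 in the same comparison (exact permutation p = 0.0066, adjusted p = 0.073). Neither of these differences between fast and partner forms passed the adjustment.

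**Figure D5:**
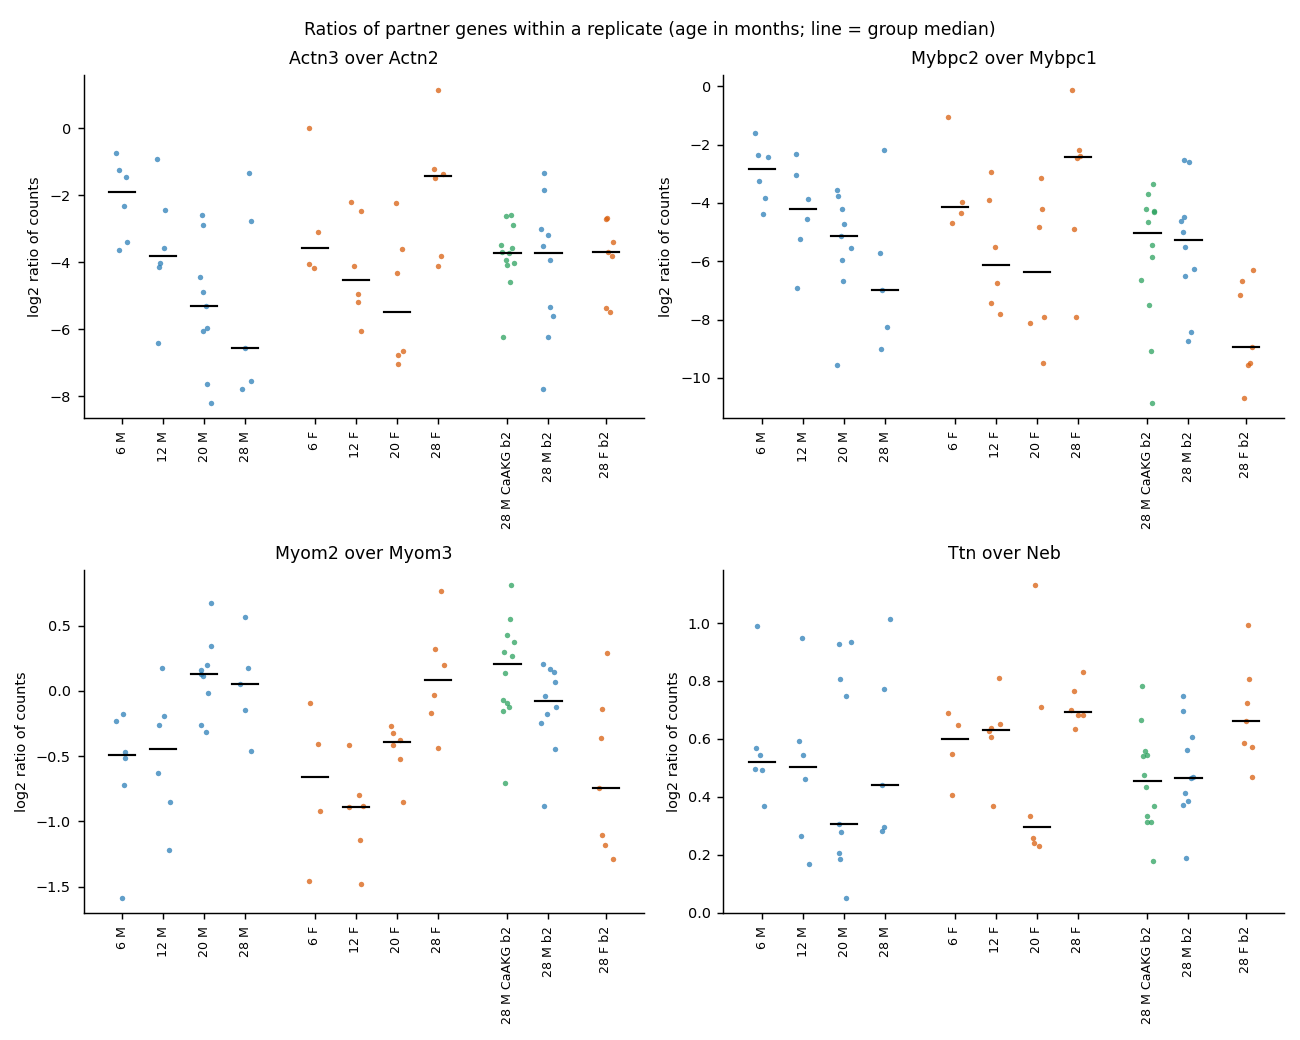
Log2 ratios of counts within each replicate of Ttn over Neb, Myom2 over Myom3, Mybpc2 over Mybpc1 and Actn3 over Actn2 by group, with points for replicates and lines for medians; the vertical scale differs between panels. The log2 ratio of Ttn to Neb lies between 0.05 and 1.13 in every replicate, and the 2 ratios of fast to partner forms spread over several log2 units inside groups.

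CaAKG feeding gave no call among the 9 genes by edgeR, where 0.022% of all genes (4 genes) were called. None had an unadjusted p under 0.05, DESeq2 called 0 of the 9, and the groups overlapped for all 9, as they did for every gene tested (0% without overlap). Myom2 had 556 to 1346 CPM (median 726) in CaAKG males (n = 12) and 473 to 842 CPM (median 696) in control males of batch 2 (n = 10), a log2 fold change of 0.22 ± 0.18 (adjusted p = 0.96). Ttn was -0.10 ± 0.21, Neb -0.06 ± 0.16, Myom1 -0.05 ± 0.13, Myom3 -0.06 ± 0.15, Mybpc1 -0.10 ± 0.12 and Actn2 -0.05 ± 0.13 on the log2 scale. The fast-fibre genes had wide errors, -0.56 ± 0.79 for Mybpc2 and -0.36 ± 0.70 for Actn3, so that changes of about a log2 unit in them were not detectable here.

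Between the sexes 0 of the 9 genes passed edgeR's test at 28 months in batch 2, where 1.28% of all genes did, and 0 at 20 months, where 0.214% did. At 28 months 2 had an unadjusted p under 0.05, Myom2 and Mybpc2, and at 20 months none had. Mybpc2 had 10.5 to 687 CPM in 28-month batch 2 males, with a mean of 197 ± 239 CPM (SD, n = 10), and 2.32 to 47.1 CPM in the females, with a mean of 17.7 ± 18.1 CPM (n = 7). The groups overlapped. The log2 fold change was 3.48 ± 1.06 with an adjusted p of 0.083, and DESeq2 called it (3.47, adjusted p = 0.0029). Myh4 was 3.91 ± 1.45 in the same comparison (adjusted p = 0.18) and the summed fast-fibre markers were 27527 to 41989 CPM in males and 16113 to 29230.3 CPM in females; their part in the Mybpc2 difference was not tested. In the interaction of sex with age, 28 against 6 months, 0 of the 9 were called, with 0 under an unadjusted p of 0.05 and 0 by DESeq2, against 0.28% of all genes.

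Between batch 2 and batch 1 of the 28-month controls, over both sexes, 2 of the 9 genes were called, 1 higher and 1 lower, against 9.31% of all genes higher, 11.3% lower and 20.6% in either direction. Neb was 0.47 ± 0.14 higher in batch 2 (adjusted p = 0.015); with the offsets, where 5.37% of all genes were called, it was -0.06, and without the replicates with skin or marrow transcripts it was 0.32 (adjusted p = 0.14). Mybpc2 was -2.89 ± 0.74 (adjusted p = 0.0032), -2.20 (adjusted p = 0.021) without batch 1 female 9 and -1.40 (adjusted p = 0.15) without batch 1 male 13. Of the 10 fast-fibre markers, 5 were called lower and 0 higher in batch 2: Myh4 was -3.03 (adjusted p = 0.022), while Myh2 was 0.15 (adjusted p = 0.52) and Myh1 -0.09 (adjusted p = 0.87). Their summed level was 16113 to 29230.3 CPM in batch 2 females, against 21019 to 74650 CPM in batch 1 females, and 27527 to 41989 CPM in batch 2 males, against 26416 to 44359 CPM in batch 1 males. Their part in the Mybpc2 difference was not tested. Ttn (0.47, adjusted p = 0.075) was called without batch 1 female 9 (0.53, adjusted p = 0.047) and without the replicates against their sex label (0.47, adjusted p = 0.041), and Myom3 (0.33, adjusted p = 0.091) without batch 1 male 15 (0.40, adjusted p = 0.043). Actn3 (-1.46, adjusted p = 0.09) was called without the replicates with skin or marrow transcripts (-1.89, adjusted p = 0.045), and was -0.76 (adjusted p = 0.42) without batch 1 female 9 and -0.81 (adjusted p = 0.41) without batch 1 male 13.

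Across the 77 deviations from group means, Mybpc1 and Actn2 were the most alike of the 9 (r = 0.90), with Ttn and Neb at 0.89 and Myom1 and Mybpc1 at 0.88. Mybpc2 and Actn3 had r = 0.72 with each other and -0.19 to 0.16 with the remaining genes. These are descriptions over replicates that share depth and length trend. The other genes most like Ttn were Syne1 (r = 0.831), Huwe1 (0.806) and Ubr4 (0.802), and Neb was near to Dmd (0.888). Myom2 was nearest to Ccdc47 (0.725) and Scn4a (0.723), Myom1 to Sptb (0.925), Ryr1 (0.921) and Cmya5 (0.919), and Myom3 to Myo18a (0.871), Ehbp1l1 (0.868) and Synpo2l (0.857). Mybpc1 was nearest to Nrap and Svil (0.879 each) and Mypn (0.874), and Actn2 to Hrc (0.859), Nrap (0.855) and Eprs (0.847). Mybpc2 was nearest to Myh4 (0.829), Slc16a3 (0.821) and Pvalb (0.817), and Actn3 to Pvalb (0.92), Myh4 (0.85) and Prkag3 (0.809).

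Of 64 other sarcomere genes on a list of Z-disc, M-band, thick and thin filament proteins, 62 were tested. At 28 against 6 months 4 were called higher and 6 lower in females, and 2 higher and 7 lower in males, where 18.8% and 16.1% of all genes were called in either direction in females and males. Trim63, a muscle ubiquitin ligase, was 216 ± 112 CPM in 28-month females (n = 6) and 121 ± 14.6 CPM in 6-month females (n = 4), 0.83 on the log2 scale (adjusted p = 0.018). Myoz2, a Z-disc partner of calcineurin, was lower at 28 months in both sexes, -0.69 in females (adjusted p = 0.0017) and -0.46 in males (adjusted p = 0.027). Pdlim7, a Z-disc adaptor, was -0.49 in females (adjusted p = 0.029) and -0.63 in males (adjusted p = 0.0036). At 20 against 6 months 15 were higher and 13 lower in females, and 10 higher and 27 lower in males, against 36% and 44.5% of all genes called in either direction. With the offsets these were 3 and 6 in females and 2 and 21 in males, against 18.8% and 31.1% of all genes. Pdlim7 was -1.13 in females (adjusted p = 6.2e-08) and -1.12 in males (adjusted p = 1e-10), and -1.16 and -1.18 with the offsets. At 12 against 6 months 0 were called in females, against 0.225% of all genes, and 17, all lower, in males, against 9.77%. With CaAKG 0 were called, against 0.022% of all genes.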

How the data were processed

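Total RNA of mouse soleus was sequenced as paired reads, per the labels' protocols. The submitters' processing notes name FastQC, STAR 2.7.11b and RSEM 1.3.3, with mm10 as the genome. No source used here states a strand setting, an annotation release or a filter. What the authors deposited is a table of RSEM expected counts that covers 36904 genes, with 8.99% of its values not whole (tolerance 1e-06). RSEM shares reads among overlapping or near-identical genes by estimate. The table's other 55 columns, which no label names, were left unused.

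Values were rounded to whole numbers, and a pair of libraries with one animal tag was summed. Genes were filtered with filterByExpr (minimum count 10, total 15), scaled by TMM and fitted over all 11 groups with edgeR 4.0.16 (robust quasi-likelihood, R 4.3.3), with Benjamini-Hochberg adjustment over 18218 genes and a threshold of 0.05. CPM are scaled by the same factors. The SE of an edgeR change was derived from its test, as the absolute log2 fold change over the square root of the F statistic. Lengths and GC are from GENCODE M21, known for 97.5% of the tested genes. The longest transcript was used in place of the planned median over transcripts, a choice made after the table was seen. Offsets came from splines of 5 degrees of freedom per library on genes with a mean of at least 1 CPM, without the 9 genes, between 308 and 19731 bases. Ratios are log2 of counts plus 0.5, tested by exact permutation, or by 100000 resamples for CaAKG against control, where both groups have 10 or more replicates. Slope relations were tested by 100000 permutations within groups. The alternatives were DESeq2 1.42.0, RLE factors, no filter, mitochondrial genes left out, the replicate block, only the compared groups, offsets from the median length (added after seeing the data), 2 sets of left-out libraries, the tagged pair kept apart, a pseudocount of 5 and each replicate left out. The fits were tested on simulated data for the male comparisons of 20 and 28 with 6 months. Where those data held a length trend, most genes called without offsets at 20 against 6 months had been left unchanged. At 28 against 6 months this held for a smaller but large part of the calls. With offsets, few of the called genes were unchanged ones in either comparison. Replicates were checked against their sex label with Xist and Ddx3y at 10 CPM, and for skin or marrow transcripts at 100 CPM summed.

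The 9 genes, the gene lists and the tests were chosen with earlier results of these data known. Besides the 9, the text names genes from up to 4 rises and 4 falls per comparison in a list of 64 other sarcomere genes, by smallest p, the 3 genes most like each of the 9, and Myh4; some genes that this rule names are not reported here. Depth was 19460372 to 112376893 counts per replicate, and the reads carry no molecular identifiers that the sources used here name.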

Additional observations from a re-analysis of the deposited data

Results flagged for a closer look

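In 13 of the 90 sets formed by one gene in one group of 4 to 10 replicates, the highest or lowest replicate stood apart by Dixon's 95% criterion. Its chance rate of about 1 in 20 holds for independent, normally distributed values. These sets share replicates, and Mybpc2 spanned up to 339-fold within a group, so the count cannot be compared with that rate. For Ttn these were 28-month batch 2 female 7 at 10526 CPM (others 4465 to 6643), 12-month male 3 at 4552 CPM (others 1889.5 to 2449) and 6-month male 3 at 6993 CPM (others 2123 to 3353). Neb was lowest in 6-month female 3, 1404 CPM (others 2068 to 2199), and Myom3 was highest in 12-month male 3, 472 CPM (others 191 to 288). Both males and the 6-month female go against their sex label.

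Mybpc2 stood apart in 28-month batch 1 female 9 at 3787 CPM (others 11.2 to 616), 28-month batch 1 male 13 at 932 CPM (others 6.95 to 46.4), 12-month female 1 at 270.2 CPM (others 7.48 to 89.8) and 6-month female 4 at 1182 CPM (others 130.3 to 157). Actn3 did so in 28-month batch 1 female 9 at 8128 CPM (others 184 to 1354), 20-month female 4 at 791 CPM (others 29.3 to 310.1) and 6-month female 4 at 2158 CPM (others 110.2 to 337). Myh4 was also the highest of its group in each of these replicates, at 14043 CPM in 28-month female 9, 4901 CPM in 28-month male 13, 404 CPM in 12-month female 1, 3068 CPM in 20-month female 4 and 6152 CPM in 6-month female 4; its part in these values was not tested. Actn2 was highest in 12-month female 2, 3534 CPM (others 1115 to 1825).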

How the results depend on the processing

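Of the 9 genes, 1 was called at 28 against 6 months in females, and this count was 2 with RLE factors, with mitochondrial genes left out, with DESeq2 or without libraries with skin or marrow transcripts, and 0 in a fit of only the compared groups. In the order named, these fits called 3587 of 18218, 3414 of 18244, 4150 of 18218, 1971 of 17912 and 0 of 15595 genes. In males the 4 calls were 1 with either kind of offset, in fits that called 1829 genes with the longest length and 2389 with the median length. At 20 against 6 months the 7 female calls were 0 with offsets from the longest length and 4 without libraries against their sex label, and the 8 male calls were 1 with those offsets. These fits called 3428 of 18218 and 5784 of 18676 genes in females and 5670 of 18218 in males. At 12 against 6 months in males 1 was called without libraries against their sex label, against 0, in a fit that called 3166 of 18676 genes. At 28 against 20 months the 4 female calls were 1 with offsets from the longest length and 2 with those from the median length, without libraries with skin or marrow transcripts or with only the compared groups. In the order named, these fits called 2912 of 18218, 3821 of 18218, 4193 of 17912 and 3954 of 15287 genes. The 1 male call was 0 with no filter (2445 of 34678 genes called) or with either kind of offset (623 and 1641 of 18218). It was 2 without libraries against their sex label (3706 of 18676). DESeq2 called 1 of the 9 genes between the sexes at 28 months, against 0, and the 2 calls between batches were 1 with either kind of offset. Of all 18218 genes, DESeq2 called 441 between those sexes. The fits with offsets called 978 (longest length) and 2150 (median length) between batches. With offsets from the longest length Myom1 was -0.01 at 20 against 6 months in females, Ttn -0.11 and Neb -0.07 in males, and Neb 0.02 and 0.11 at 28 against 20 months in females and males and -0.06 between batches, all with signs opposite to those without offsets. Leaving out each replicate gave 1 to 2 and 1 to 5 calls at 28 against 6 months in females and males, 4 to 7 and 6 to 8 at 20 months, 0 to 4 and 0 to 1 at 12 months, 2 to 5 and 0 to 1 between 28 and 20 months, 1 to 3 between batches, and 0 for CaAKG, between the sexes at both ages and in the interaction. Replicate numbers did not pair the animals: correlations of deviations between same-numbered replicates were -0.27 to 0.29, and 28-month batch 1 animals share no number with the 6- and 20-month groups. With the replicate block the calls were 0 in both sexes at 28 against 6 months, where Myom2 was 0.84 (adjusted p = 0.12) in females and 0.85 (adjusted p = 0.25) in males, 7 in both sexes at 20 months, 2 and 1 between 28 and 20 months and 1 between batches. That fit called 1068 and 348 of 18218 genes at 28 against 6 months in females and males, and 6380 and 7607 at 20 months. It called 3347 and 872 between 28 and 20 months and 1122 between batches. Over all genes, calls at 28 against 6 months ranged from 0 to 4150 in females (3423) and 348 to 3776 in males (2939). The causes of these moves were not tested. Of 1287 values of single genes under settings other than leaving out a replicate, 56 lost a call and 16 gained one. The sign changed in 40, called or not, of which 20 were with offsets from the longest length, 12 with the replicate block, 4 without libraries with skin or marrow transcripts, 3 with offsets from the median length and 1 without libraries against their sex label. The 6 of these that held a call are those given above. Mybpc2, at its lowest 2.03 CPM, is the least deeply counted of the 9 genes.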
